A study of Saccharomyces cerevisiae BY4743 with 24 samples.

Results

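The TOM complex is the entry gate of the mitochondrial outer membrane in the budding yeast Saccharomyces cerevisiae. Its 7 genes, TOM5, TOM6, TOM7, TOM20, TOM22, TOM40 and TOM70, were picked by gene symbol from a deposited table of 6087 entries, of which 5959 are mRNAs. All 7 were found, and all 7 passed the filter on low values, a level of 10 mRNA TPM or more in 3 or more libraries, which left 3949 mRNAs to test. The libraries come from polysome gradients, in which a lysate is spun through sucrose so that mRNAs separate by the number of ribosomes they carry. The strain is BY4743, a diploid laboratory strain, grown to mid-log phase in complete synthetic medium with raffinose and a trace of glucose. Cells were taken at 30 °C, or were collected on a filter, put into 42 °C medium and taken 30 min later. Cells at 30 °C were not filtered, so handling and temperature cannot be told apart. Each gradient was divided into pools 1 to 4, called mono, di, tri and 4 in the library names, and each of the 8 groups of temperature and pool has 3 libraries from 3 gradients, 24 libraries from 6 gradients in all. Cycloheximide, which stalls ribosomes on mRNA, was present at harvest in every group.

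Most mitochondrial proteins are made in the cytosol and cross the outer membrane through this complex. Tom40 is the beta barrel that forms the channel. Tom22 is the central receptor that also holds the channels together, Tom20 receives precursors with a presequence, and Tom70 receives hydrophobic precursors with internal signals, often from chaperones. Tom5, Tom6 and Tom7 are small tail-anchored subunits: Tom5 helps to pass precursors to the channel, Tom6 favours assembly of the complex, and Tom7 acts in its rearrangement. TOM71 encodes a close relative of Tom70 and is not among the 7, but is given beside it.

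By their annotation in build R64, the genes fall into a short and a longer class. TOM5 (YPR133W-A, chromosome XVI 797557 to 797709) spans 153 nt, TOM7 (YNL070W, chromosome XIV 493366 to 493548) 183 nt and TOM6 (YOR045W, chromosome XV 413852 to 414037) 186 nt. TOM22 (YNL131W, chromosome XIV 378767 to 379225) spans 459 nt and TOM20 (YGR082W, chromosome VII 644044 to 644595) 552 nt. TOM40 (YMR203W, chromosome XIII 668492 to 669655) spans 1164 nt and TOM70 (YNL121C, chromosome XIV 398684 to 400537) 1854 nt. These are gene spans in the reference table, in which 3 members lie on chromosome XIV.

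Levels are given as mRNA TPM, the deposited TPM (transcripts per 1000000) rescaled so that the mRNAs of each library sum to 1000000. They are shares of the mRNA in a pool, and in these bulk libraries fewer cells with an mRNA and less of it per cell cannot be told apart. Read depth is unknown. The heat label was borne by HSP104, a heat-induced disaggregase, whose mean went from 48.0 ± 3.93 at 30 °C to 6814 ± 1436 mRNA TPM at 42 °C (mean ± SD of 3 gradients). URA3, deleted in the strain, was listed at 0 in 24 of 24 libraries. LEU2, also deleted in the strain, was listed at 0 in all 8 libraries numbered 3, but stood between 22.6 and 217 mRNA TPM in the 8 numbered 1 and between 4.15 and 25.8 in the 8 numbered 2. Libraries numbered 1 and 2 thus go against the strain label at this gene in both temperatures, and its part in the results was not tested. Haploid-specific genes, repressed in a/alpha diploids, were not all at 0. STE3 was at 0 in 11 of 24 libraries (highest 17.9 mRNA TPM), STE2 in 16 (3.91), HO in 18 (2.28) and MF(ALPHA)1 in 19 (9.90). MFA1 was at 0 in 20 (highest 787), MFA2 in 21 (1294) and MF(ALPHA)2 in 22 (3.71). What these values mean for the strain label was not tested. The labels do not say that replicates are separate cultures, so p-values measure the spread between these samples. As group means, mRNA made up 0.264% of TPM in pool 1 at 42 °C, 1.61% in pool 2 at 42 °C and 2.11 to 3.46% in the other groups.

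The short members rest on coarse values. In each library, deposited TPM of short mRNAs fell mostly on whole multiples of a step. The step was a library value divided by a number set for each range of lengths. That library value was the largest tried that made at least 85% of values whole at 183 to 189 nt and 201 to 207 nt. At those lengths 444 of 466 values (95.3%) were whole within 0.02, a share that the choice kept at 85% or more. At other short lengths, not used in the choice, 179 of 201 (89.1%) were. For TOM6 and TOM7, 1 step was worth 68.6 to 554.5 mRNA TPM depending on the library, and for TOM5 96.1 to 776.3. Values of TOM22 and TOM20 also fell on steps in all 24 libraries, whereas no common step was found for TOM40 or TOM70.

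Over the 12 libraries at 30 °C, TOM5 summed to 274 steps, TOM6 to 98, TOM7 to 52, TOM22 to 482 and TOM20 to 449. At 42 °C the sums were 62, 17, 20, 119 and 42. The TOM6 value of a library at 42 °C therefore stood on 0 to 5 steps, and that of TOM22 on 4 to 22. TPM keeps no depth, so steps are not compared between libraries here, and whether a step is 1 sequenced fragment was not tested.

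**Figure D1:**
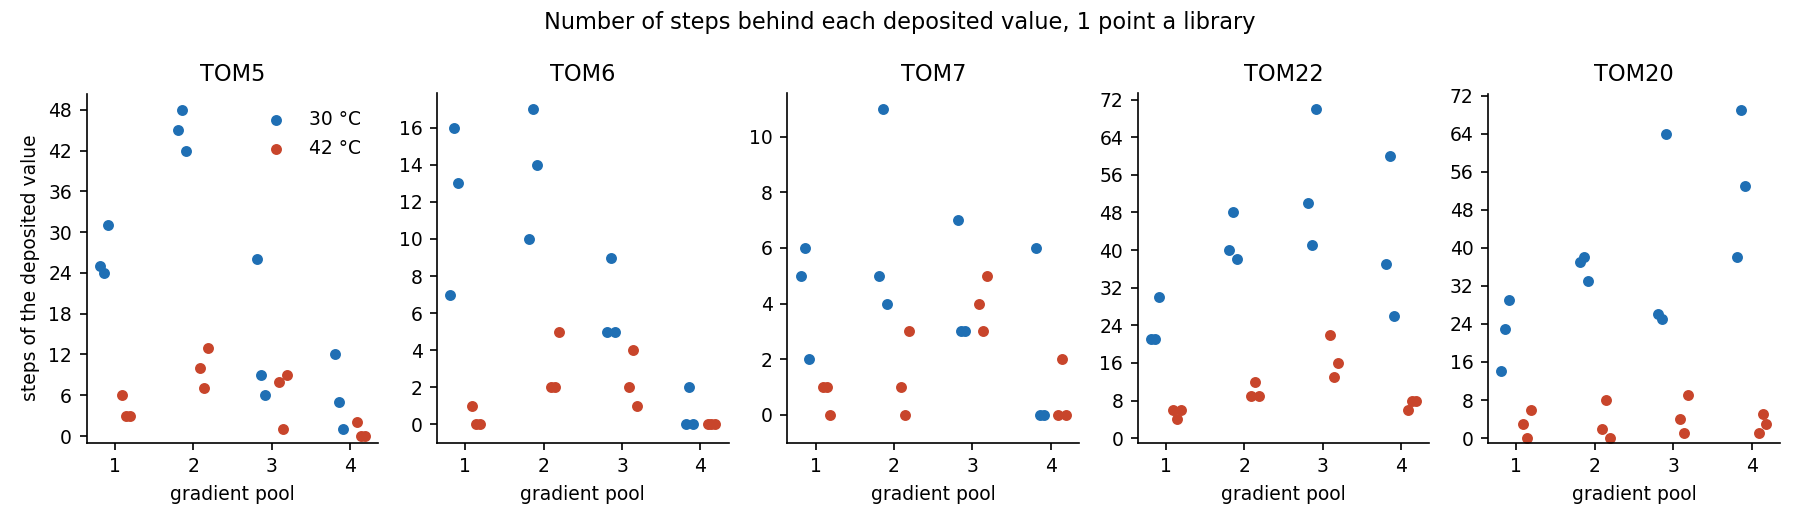
Each point is the number of steps (y axis, whole numbers) that make up the deposited value of a member in 1 library, by gradient pool (x axis), at 30 °C in blue and 42 °C in red. TOM6 at 42 °C stands on 0 to 5 steps, whereas TOM22 stands on at least 4 in every library. Depth is unknown, so heights do not compare libraries.

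On the mRNA TPM scale TOM5 had the highest level of the members. At 30 °C the gradient means were 4301, 2791 and 2914 mRNA TPM for TOM5 (3335 ± 838, mean ± SD, n = 3) and 597, 1126 and 814 for TOM6 (845.8 ± 266). TOM7 followed at 471.6 ± 265, so TOM6 and TOM7 did not differ beyond their spread. The receptors TOM22 and TOM20 came next at 160.1 ± 7.46 and 132.9 ± 32.5, also within their spread of each other. TOM70 at 39.1 ± 8.87 and TOM40 at 27.5 ± 6.57 were lowest, and TOM71 stood at 19.5 ± 1.9.

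That order was set on values that carry the authors' length correction. A step of TOM5 was worth 41.6 times a step of TOM22 in the same library, while the annotated length of TOM22 is 3 times that of TOM5. For TOM6 and TOM7 the step was worth 29.7 times that of TOM22, against length ratios of 2.47 and 2.51. The order of short and larger members is therefore given for the TPM scale only.

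At 30 °C TOM6 was lower in pool 4 than in pool 1, and TOM22, TOM40 and TOM70 were higher there, whereas the differences of TOM5, TOM7 and TOM20 did not pass the test given after the values. By replicate, TOM5 read 5093, 3804 and 5241 mRNA TPM (pool 1), 5084, 4611 and 5425 (pool 2), 4092, 1729 and 665.5 (pool 3), and 2933, 1020 and 324.3 (pool 4). All 3 libraries of pool 4 lay below all 3 of pool 1. TOM6 read 1019, 1811 and 1570 (pool 1), 807, 1166 and 1292 (pool 2), 562, 1235 and 396 (pool 3), and 0, 291.4 and 0 (pool 4). TOM6 was highest in pool 1 in 3 of 3 gradients at 30 °C, and its pool 4 value of 291.4 stands on 2 steps. TOM7 read 727.5, 679.2 and 241.5 (pool 1), 403.5, 754.7 and 369.1 (pool 2), 786.9, 411.6 and 237.7 (pool 3), and 1048, 0 and 0 (pool 4), so its groups overlapped.

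TOM22, the central receptor, read 102.8, 80.0 and 121.9 mRNA TPM (pool 1), 108.6, 110.8 and 118.0 (pool 2), 189.2, 189.3 and 186.6 (pool 3), and 217.4, 294.2 and 202.7 (pool 4). Pools 3 and 4 lay wholly above pools 1 and 2 for this gene. TOM20 read 56.8, 72.6 and 97.7 (pool 1), 83.3, 72.7 and 84.9 (pool 2), 81.5, 95.6 and 141.4 (pool 3), and 185.0, 280.4 and 342.4 (pool 4). All 3 libraries of pool 4 lay above the other 9 for TOM20. How many of all tested mRNAs separated as TOM22 and TOM20 did here was not counted. TOM40, the channel, read 9.91, 19.4 and 12.4 (pool 1), 16.1, 21.2 and 13.8 (pool 2), 19, 20.7 and 22.7 (pool 3), and 36.0, 71.1 and 67.9 (pool 4). TOM70 read 22, 38.0 and 37.7 (pool 1), 23.1, 28.7 and 25.8 (pool 2), 24.8, 34.3 and 31.8 (pool 3), and 45.7, 80.0 and 76.9 (pool 4). For each of these 4 genes pools 1 and 4 did not overlap (62.1% of tested mRNAs lay wholly higher in pool 4), and pool 4 was the highest pool in 3 of 3 gradients. TOM5 and TOM6 lay wholly lower there, as 3.09% of tested mRNAs did.

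Pool 4 was tested against pool 1 at 30 °C in a limma fit across all tested mRNAs (moderated linear model on log2 of mRNA TPM plus 1, all 24 libraries, two-sided, Benjamini-Hochberg adjusted p). Of the 7 members, 3 were higher in pool 4 (47.1% of all tested mRNAs were called higher) and 1 was lower (1.34% were called lower). Called higher were TOM40 (log2 difference 1.98 ± 0.41 SE, adjusted p = 0.000836), TOM22 (1.22 ± 0.27, adjusted p = 0.00149) and TOM70 (1.03 ± 0.27, adjusted p = 0.00509). The one called lower was TOM6 (−7.75 ± 1.88, adjusted p = 0.00271). TOM7 at −5.60 ± 2.83 (adjusted p = 0.105), TOM5 at −2.23 ± 1.61 (adjusted p = 0.25) and TOM20 at 1.81 ± 1.34 (adjusted p = 0.262) did not pass. The fit uses a single spread per gene over all groups, so libraries at 42 °C enter these SEs. At 42 °C TOM5 and TOM20 were each listed at 0 in 2 libraries and TOM7 in 4. Fold changes are on the log2 scale with a pseudocount of 1, and those of TOM6 and TOM7 depend on it because 2 of 3 libraries of pool 4 are listed at 0. Without replicate 3 at 30 °C 0 members were called lower, without replicate 1 at 30 °C or replicate 1 or 2 at 42 °C 2 were, and without replicate 2 at 30 °C 1 was called higher.

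The median of all tested mRNAs was itself 1.18 higher in pool 4. Less that median, TOM22 stood at 0.04, TOM70 at −0.15, TOM20 at 0.63 and TOM40 at 0.80. Scaling each library on its median mRNA left 0 members called higher by limma (4.53% of mRNAs were; 1 member, TOM40, at an unadjusted p under 0.05), and TOM70 then read −0.10. Relative to the median mRNA TOM5 was at −3.41, TOM7 at −6.78 and TOM6 at −8.93. In the order of all tested mRNAs by this difference, TOM6 lay at percentile 0.101, TOM7 at 0.253 and TOM5 at 1.70, against 41.4 to 88.8 for the 4 larger members. TOM6 was called lower with median scaling too (−8.88, adjusted p = 0.00649), as 3.57% of mRNAs were.

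Length went with the pool difference across all mRNAs. The 172 tested mRNAs under 300 nt had a median pool 4 against pool 1 difference of −0.47 at 30 °C, the 629 of 300 to under 600 nt 0.63, the 1498 of 600 to under 1200 nt 1.28, and the 1650 of 1200 nt or more 1.27. All 3 short members lay below the median of their own length class, and TOM22 and TOM20 above that of theirs. TOM40 lay above its class and TOM70 at 1.03 below its own. In the shortest class 32.4% of values were listed at 0 in pool 4 and 22.3% in pool 1 at 30 °C, and the part of these zeros in the short members' difference was not tested.

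**Figure D2:**
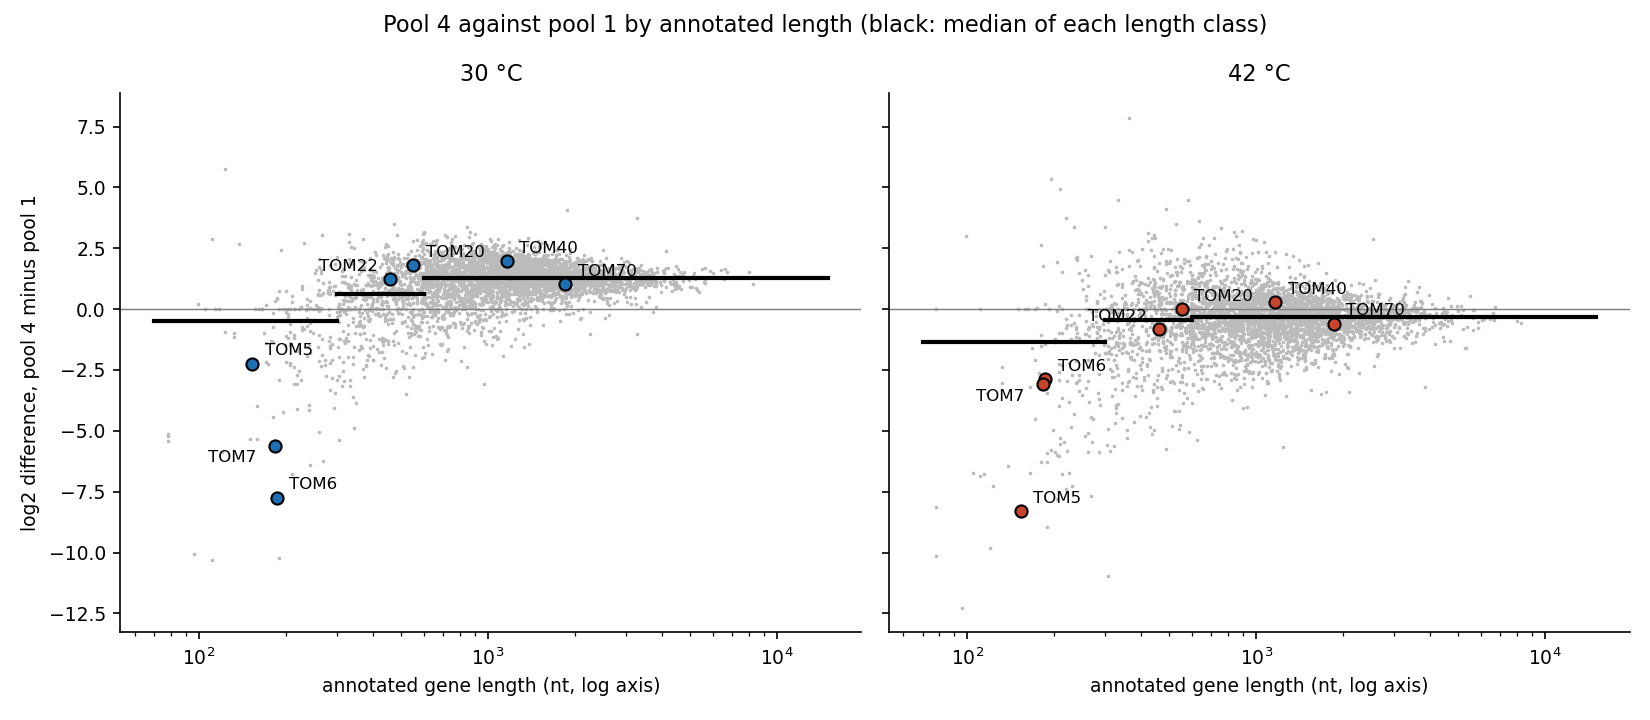
Each grey point is 1 of the tested mRNAs, placed by annotated gene length (x axis, nt, log axis) and log2 difference of pool 4 minus pool 1 (y axis) at 30 °C (left) and 42 °C (right), with the 7 members in colour and the median of each length class as a black line. At 30 °C the 4 larger members lie between 1.03 and 1.98 and the 3 short ones between −7.75 and −2.23. At 42 °C the larger members lie between −0.82 and 0.30.

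The share of the 3 short members in the summed mRNA TPM of the complex was also followed by pool. At 30 °C pool 1 gave 96.8 ± 0.480% and pool 2 96.6 ± 0.118% (mean ± SD, n = 3). It was 94.5, 90.8 and 77.3% in the libraries of pool 3 and 89.2, 64.4 and 32.0% in those of pool 4. The pool 4 libraries lay below those of pools 1 and 2 but spread widely among themselves. At 42 °C the share was 94.3 ± 3.6% (pool 1), 96.6 ± 2.24% (pool 2) and 94.0 ± 1.27% (pool 3), and the libraries of pool 4 gave 87.7, 78.5 and 0%. These shares carry the length correction described above and compare pools, not genes. Short mRNAs in general also took a smaller share in pool 4. Listed mRNAs under 300 nt held 54.15, 47.6, 37.63 and 24.03% of all mRNA TPM in pools 1 to 4 at 30 °C. At 42 °C they held 48.06, 54.91, 54.13 and 33.94%.

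**Figure D3:**
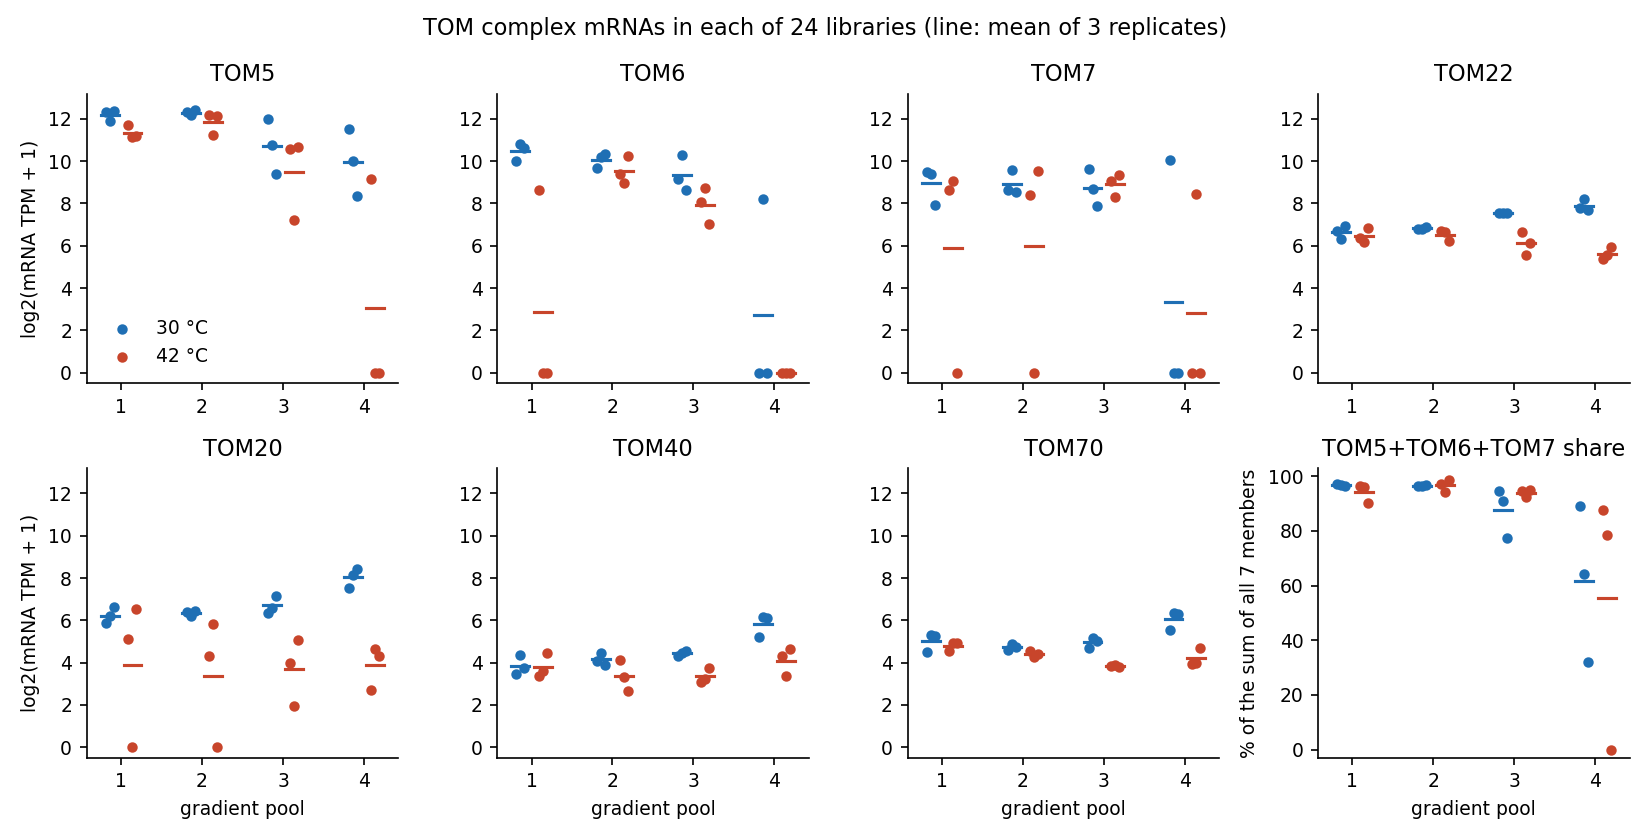
Each point is 1 library, by gradient pool (x axis) and log2 of mRNA TPM plus 1 (y axis), at 30 °C in blue and 42 °C in red, with the mean of 3 replicates as a line. The last panel gives the share of TOM5, TOM6 and TOM7 in the sum of the 7 members in percent. At 30 °C the 4 larger members are highest in pool 4, while TOM5 and TOM6 are lowest there. Points at 0 are values listed at 0.

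At 42 °C 0 of the 4 larger members were called higher in pool 4 than in pool 1 on this scale. TOM22 read 81.3, 71.9 and 112.0 mRNA TPM (pool 1), 102.1, 100.7 and 73.9 (pool 2), 99.4, 45.8 and 69.7 (pool 3), and 40.7, 46.7 and 60.4 (pool 4). Its pool 4 libraries lay below all those of pool 1, as did those of TOM5 (19.7% of tested mRNAs lay wholly lower). TOM70 read 22.3, 29.3 and 29.1 in the libraries of pool 1 and 14.2, 14.8 and 24.6 in those of pool 4. TOM40 read 9.33, 11 and 20.9 against 18.6, 9.43 and 23.7. TOM20 read 33.7, 0 and 92.8 against 5.63, 24.2 and 18.8. The groups of these 3 genes overlapped. TOM5 read 3384, 2245 and 2329 (pool 1), 4721, 2443 and 4441 (pool 2), 1503, 146.6 and 1631 (pool 3), and 564.9, 0 and 0 (pool 4). TOM5 was lowest in pool 4 in all 6 gradients. TOM6 read 402.9, 0 and 0 (pool 1), 674.5, 498.6 and 1220 (pool 2), 268.4, 418.8 and 129.4 (pool 3), and 0 in all 3 libraries of pool 4, where it gives no fold. TOM6 and TOM5 were highest in pool 2 in 3 of 3 gradients at 42 °C. TOM7 read 402.9, 534.4 and 0 (pool 1), 337.2, 0 and 732.0 (pool 2), 536.9, 314.1 and 647.2 (pool 3), and 0, 346.7 and 0 (pool 4), with every pool overlapping.

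In the fit at 42 °C, 1 of 7 members was lower in pool 4 than in pool 1 (11.4% of tested mRNAs were called lower) and 0 were higher (1.7%). The member was TOM5 (−8.30 ± 1.61, adjusted p = 0.00274). TOM22 stood at −0.82 ± 0.27 (adjusted p = 0.052), and with the replicate number as a block it passed (−0.82, adjusted p = 0.0454), which made 2 members lower. TOM70 at −0.59 ± 0.27 (adjusted p = 0.159), TOM40 at 0.30 ± 0.41 (adjusted p = 0.692) and TOM20 at 0.01 ± 1.34 (adjusted p = 1) did not pass. The direction of TOM22 and TOM70 flipped with the scale: against 25S rRNA they were higher in pool 4, at 0.97 (adjusted p = 0.00666) and 1.11 (adjusted p = 0.00864), as the median mRNA was at 1.13. TOM5 was below 0 in all 21 alternatives, among them TPM as deposited (−1.58, adjusted p = 0.151). Pool 2 differed from pool 1 for 0 of 7 members at 30 °C (0% of tested mRNAs were called in either direction) and 0 of 7 at 42 °C (0.253% higher and 1.67% lower) by limma, with 0 and 1 below an unadjusted p of 0.05. The 1 was TOM6 (6.65 ± 1.88, adjusted p = 0.0635), whose lowest value in pool 2, 498.6 mRNA TPM, was above its highest in pool 1, 402.9, with the other libraries of pool 1 listed at 0. In pool 1 at 42 °C 1 step of TOM6 was worth 402.9, 534.4 and 554.5 mRNA TPM by replicate. A single step in replicate 2 or 3 would thus lie above 498.6, so this separation is finer than the values resolve. The share of all tested mRNAs separated in this way was not counted. TOM6 was called higher in pool 2 once replicate numbers were blocked (adjusted p = 0.0458) and also without replicate 1 at 42 °C, and over 21 alternatives its adjusted p ran from 0.000112 to 0.513.

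The heat change of the pool 4 against pool 1 difference was tested as an interaction. It was lower for 4 of 7 members (48.2% of tested mRNAs were called lower) and higher for 0 (0.304%). The 4 were TOM5 (−6.07 ± 2.28, adjusted p = 0.0363), TOM22 (−2.05 ± 0.39, adjusted p = 0.00103), TOM40 (−1.68 ± 0.58, adjusted p = 0.0254) and TOM70 (−1.62 ± 0.39, adjusted p = 0.004). The median of all tested mRNAs was −1.56, close to the values of TOM22, TOM40 and TOM70. With median scaling 0 members were called by limma (0.152% of mRNAs were called lower; 1 member, TOM6, passed an unadjusted p of 0.05, at 6.62), and TOM40 and TOM70 read 0.07 and 0.13. Without replicate 2 or replicate 3 at 30 °C, 2 members were called lower, TOM22 and TOM70. Without replicate 2 at 30 °C or replicate 1 at 42 °C, TOM6 was called higher. At 42 °C TOM6 was listed at 0 in all 3 libraries of pool 4 and in 2 of 3 of pool 1. Without replicate 1 at 42 °C every value left in these pools at 42 °C is 0, so the change only mirrors the difference at 30 °C. The positive values of TOM6 are therefore not read as a heat change.

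After heat, the TOM mRNAs made up a smaller share of the mRNA. The gradient means of TOM20 were 101.7, 130.3 and 166.6 mRNA TPM at 30 °C and 18.3, 20.7 and 36.0 at 42 °C. Those of TOM22 were 154.5, 168.6 and 157.3 against 80.9, 66.3 and 79.0. Both receptors had groups that did not overlap. TOM40 read 20.3, 33.1 and 29.2 against 13, 9.40 and 15.6, and TOM70 28.9, 45.3 and 43.1 against 18, 19 and 21.8. The channel and the chaperone-docking receptor thus also had separate groups. TOM5 read 4301, 2791 and 2914 against 2543, 1209 and 2100. TOM6 read 597, 1126 and 814 against 336, 229 and 337. TOM7 read 741, 461 and 212 against 319, 299 and 345. TOM7 alone of the 7 had overlapping groups, while 35.2% of tested mRNAs lay wholly lower at 42 °C.

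Tested over the mean log2 level of the 4 pools of each gradient, 6 of 7 members were lower at 42 °C (32.4% of tested mRNAs were called lower, 31.2% higher). They were TOM20 (−3.12 ± 0.32, adjusted p = 0.00014), TOM22 (−1.05 ± 0.20, adjusted p = 0.00265), TOM70 (−0.89 ± 0.23, adjusted p = 0.0119), TOM40 (−0.91 ± 0.25, adjusted p = 0.0138), TOM6 (−3.06 ± 0.86, adjusted p = 0.016) and TOM5 (−2.35 ± 0.85, adjusted p = 0.0434). TOM7 stood at −1.59 ± 0.89 (adjusted p = 0.156). Of 12 libraries at 42 °C, TOM6 was listed at 0 in 5, TOM7 in 4, and TOM5 and TOM20 in 2 each. The sizes of these 4 log2 differences therefore depend on the pseudocount and do not rank the members. By mean mRNA TPM, TOM5 went from 3335 to 1951 and TOM6 from 845.8 to 301.1. TOM71 was lower too, at −1.64 ± 0.23 (adjusted p = 0.000602), from 19.5 ± 1.9 to 5.54 ± 1.19 mRNA TPM. The median of the 7 members was −1.59, and that of all tested mRNAs −0.02.

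By mean log2 level over the 4 pools, each member was lower at 42 °C in all 3 pairs of gradients with the same number. This included the pair numbered 3, in which LEU2 was listed at 0. In that pair the differences were −0.98 for TOM22, −3.18 for TOM20, −0.71 for TOM40, −0.88 for TOM70, −2.13 for TOM5, −3.08 for TOM6 and −1.37 for TOM7. By mean mRNA TPM, TOM7 went the other way in the pair numbered 3, from 212 at 30 °C to 345 at 42 °C. With the number as a block, 7 of 7 members were lower, TOM7 with an adjusted p of 0.0277. The share of all tested mRNAs called in that blocked fit was not counted. Leaving out 1 gradient at a time, TOM20 and TOM22 stayed past the threshold in 6 of 6 fits, TOM40 in 5, TOM6 and TOM70 in 4 and TOM5 in 1. Without replicate 2 at 30 °C, 3 members were lower.

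The direction of the heat difference did not depend on the scale. All 7 members were below 0 under every alternative run, including TPM as deposited, 25S rRNA and spike-in scales. The count did depend on it: 7 of 7 were called on the 25S rRNA scale, where the median mRNA was at −0.95, and 0 by limma on the spike-in scale (2 at an unadjusted p under 0.05, TOM20 and TOM6), where spike-in TPM ran from 22.7 to 94.3 in libraries numbered 1 and from 245.7 to 511.3 in the others. With the number as a block on the spike-in scale, 7 were called, TOM20 at −3.99 and TOM22 at −2.26. The shares of all tested mRNAs called on these scales were not counted, so these counts stand without a background.

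Within single pools the larger members carried most of the calls. In pool 4 5 of 7 members were lower at 42 °C (43.8% of tested mRNAs were called lower): TOM22 (−2.25 ± 0.27, adjusted p = 1.43e-06), TOM70 (−1.86 ± 0.27, adjusted p = 1.3e-05), TOM5 (−6.91 ± 1.61, adjusted p = 0.00126), TOM40 (−1.73 ± 0.41, adjusted p = 0.00147) and TOM20 (−4.14 ± 1.34, adjusted p = 0.0131). The median mRNA fell by 0.94 there. TOM5 in pool 4 read 2933, 1020 and 324.3 mRNA TPM at 30 °C and 564.9, 0 and 0 at 42 °C. Its groups thus overlapped, and the size of its fold depends on the pseudocount. In pool 3 3 of 7 were lower (28.1%): TOM22 (−1.45 ± 0.27, adjusted p = 0.000234), TOM70 (−1.11 ± 0.27, adjusted p = 0.00233) and TOM40 (−1.09 ± 0.41, adjusted p = 0.0345), with the median mRNA at −0.24. In pool 2 0 of 7 were called by limma (18.8% of mRNAs lower), with 1 below an unadjusted p of 0.05, and in pool 1 1 of 7 (17.1%), TOM6 at −7.59 ± 1.88 (adjusted p = 0.00198), where 2 of 3 libraries at 42 °C were listed at 0. No member was called higher in any pool, against 39.7, 33.2, 20.9 and 13.8% of tested mRNAs in pools 1 to 4. Without replicate 3 at 42 °C 2 members were called in pool 1, and without replicate 1 or 2 at 42 °C 1 was called in pool 2.

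In pools 1 and 2 the comparison turned on what the rest of the mRNA did. The median mRNA was 0.65 higher in pool 1 and 0.42 higher in pool 2 at 42 °C, and all 7 members lay below it in both. With median scaling 3 members were called lower in pool 1 (27% of mRNAs), TOM6 and also TOM22 (−0.90, adjusted p = 0.00365) and TOM70 (−0.94, adjusted p = 0.00217). In pool 2 the 4 larger members were called (25.9% of mRNAs), with TOM20 at −3.38 (adjusted p = 0.037) and TOM40 at −1.20 (adjusted p = 0.00563). TOM7 read 0.41 above the median mRNA in pools 3 and 4, on values of 0 to 7 steps.

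**Figure D4:**
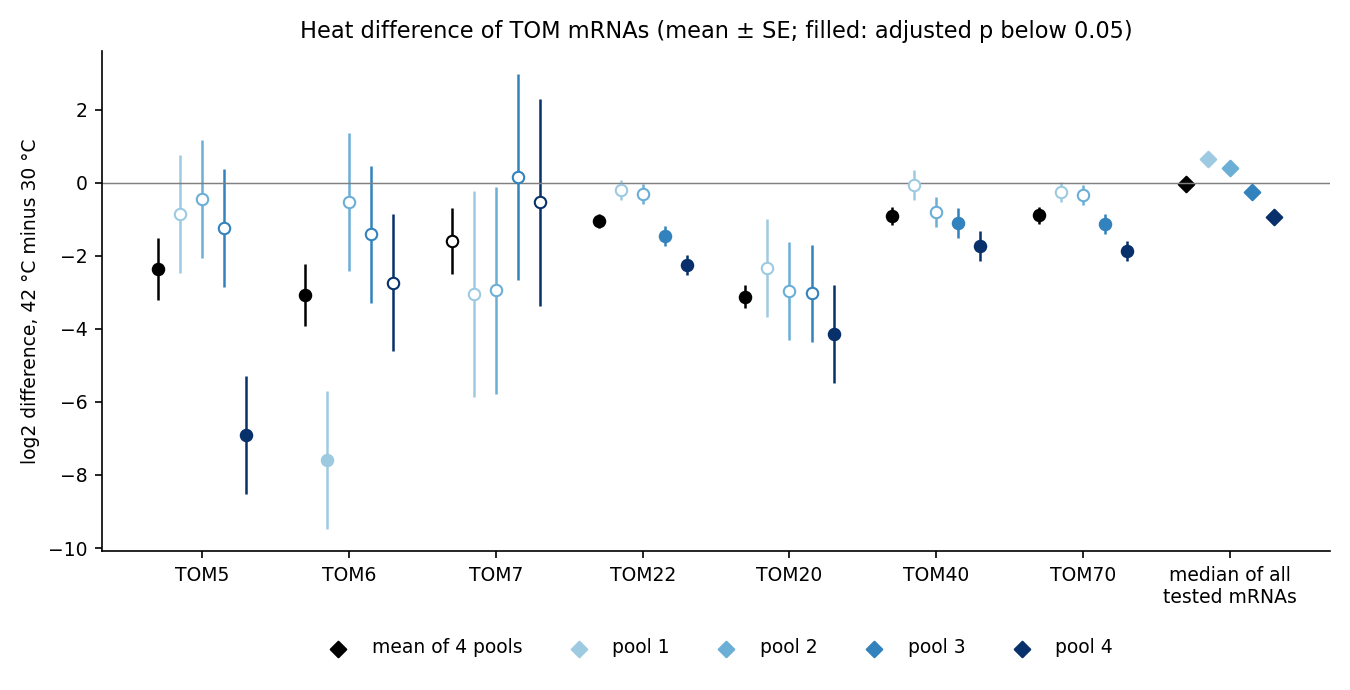
Points are log2 differences of mRNA TPM plus 1, 42 °C minus 30 °C (y axis), with SE bars, for each member (x axis) in each pool and over the mean of the 4 pools. Filled points have an adjusted p below 0.05, and diamonds at the right give the median of all tested mRNAs. The differences of the 4 larger members become more negative from pool 1 to pool 4, as does the median mRNA, and lie below it, and the short members have SEs of 1.61 to 2.83 in single pools.

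The 7 profiles were compared over the 8 group means of log2 level, which share libraries and scaling. Among the 4 larger members Pearson's r ran from 0.74 to 0.87, and among the 3 short ones from 0.64 to 0.87. Between a short and a larger member it ran from −0.45 (TOM7 with TOM40) to 0.51 (TOM5 with TOM22). The tested mRNAs most like the mean profile of the members, among those with at least 20 mRNA TPM on average, were DMO2 and ATP18 (both 0.97), YCR043C and COX9 (both 0.96) and YPR053C (0.96). ATP18 encodes a subunit of the mitochondrial ATP synthase and COX9 one of cytochrome c oxidase. Both span 180 nt, near the short members, and DMO2, YCR043C and YPR053C span 357, 384 and 456 nt. The mean profile mixes short and larger members, and the part of length in this likeness was not tested.

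The rest of the import machinery was followed in 9 lists with 45 genes, of which 39 were tested. Over the mean of the 4 pools 16 of the 39 were lower at 42 °C, 7 were higher and 16 did not pass, with a median of −0.58. The shares over all tested mRNAs were 32.4% lower and 31.2% higher, so the lower calls stood above the background and the higher calls below it, with no test of that difference.

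Downstream of the TOM channel, most called genes were lower. In the TIM23 translocase, which takes presequence proteins through the inner membrane, 4 of 5 fell, with TIM23 at −2.16 (158.9 ± 30.1 to 37.6 ± 19 mRNA TPM), MGR2 at −0.94 and TIM17 at −0.73, which did not pass once replicate numbers were blocked (adjusted p = 0.0776). In the import motor, which pulls precursors into the matrix, 4 of 6 fell, MGE1 among them (−1.54 ± 0.19, adjusted p = 0.00036), while TIM44 at −0.47 did not pass. SSC1, the matrix Hsp70, went the other way (1.24 ± 0.21, adjusted p = 0.00186), from 514.2 ± 84.0 to 1067 ± 118 mRNA TPM. Of the small TIM chaperones, which escort hydrophobic proteins behind the TOM complex, 3 of 5 fell, with TIM10 at −2.62 and TIM8 at −1.63, and TIM9 at −0.58 did not pass.

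ERV1, the sulfhydryl oxidase of the intermembrane space, fell (−2.25 ± 0.31, adjusted p = 0.000567), whereas its partner MIA40 at 0.45 and HOT13 at 0.11 did not pass. Both tested genes of the TIM22 carrier translocase, TIM54 at −0.81 and TIM22 at −0.46, missed the threshold. Of 8 genes of presequence processing and inner membrane insertion, 2 fell and 6 did not pass. MAS2, a subunit of the processing peptidase, was at −0.95 (adjusted p = 0.0237), SOM1 at 0.90 (adjusted p = 0.272) and IMP1 at −0.65 (adjusted p = 0.139).

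In the outer membrane itself the calls were mixed. MIM2, part of the complex that inserts helical outer membrane proteins, rose (1.93 ± 0.24, adjusted p = 0.000392), from 396.8 ± 94.9 to 1484 ± 295 mRNA TPM. MIM1 of the same complex stood at 0.55 (adjusted p = 0.419), while SAM35 of the beta-barrel insertase fell (−0.95, adjusted p = 0.0342) along with 1 other gene of that list. All 3 genes of outer membrane extraction and import stress rose: CIS1, which recruits Msp1 to TOM in stalled import (4.50 ± 0.83, adjusted p = 0.00246), MSP1, the membrane ATPase that extracts proteins (1.05 ± 0.20, adjusted p = 0.00313), and UBX2, which brings the ATPase Cdc48 to TOM (0.93 ± 0.27, adjusted p = 0.0177). In single pools all 3 were called higher in pools 1 and 2, only CIS1 in pool 3 and 0 in pool 4. The shares of all tested mRNAs called higher there were 39.7, 33.2, 20.9 and 13.8%. MSP1 and UBX2 read below 0 on the spike-in scale, at −0.16 and −0.21. CIS1 went from 11.4 ± 10.9 to 202.0 ± 75.0 mRNA TPM.

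Of the other outer membrane proteins OM45 rose (2.96 ± 0.22, adjusted p = 3.9e-05), from 67.1 ± 9.16 to 431.4 ± 58.3 mRNA TPM. POR1, the porin that is the main pore for metabolites, was higher (0.80 ± 0.25, adjusted p = 0.0248), but read −0.24 against 25S rRNA and −0.17 in TPM as deposited. OM14 at −0.10 did not pass.

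**Figure D5:**
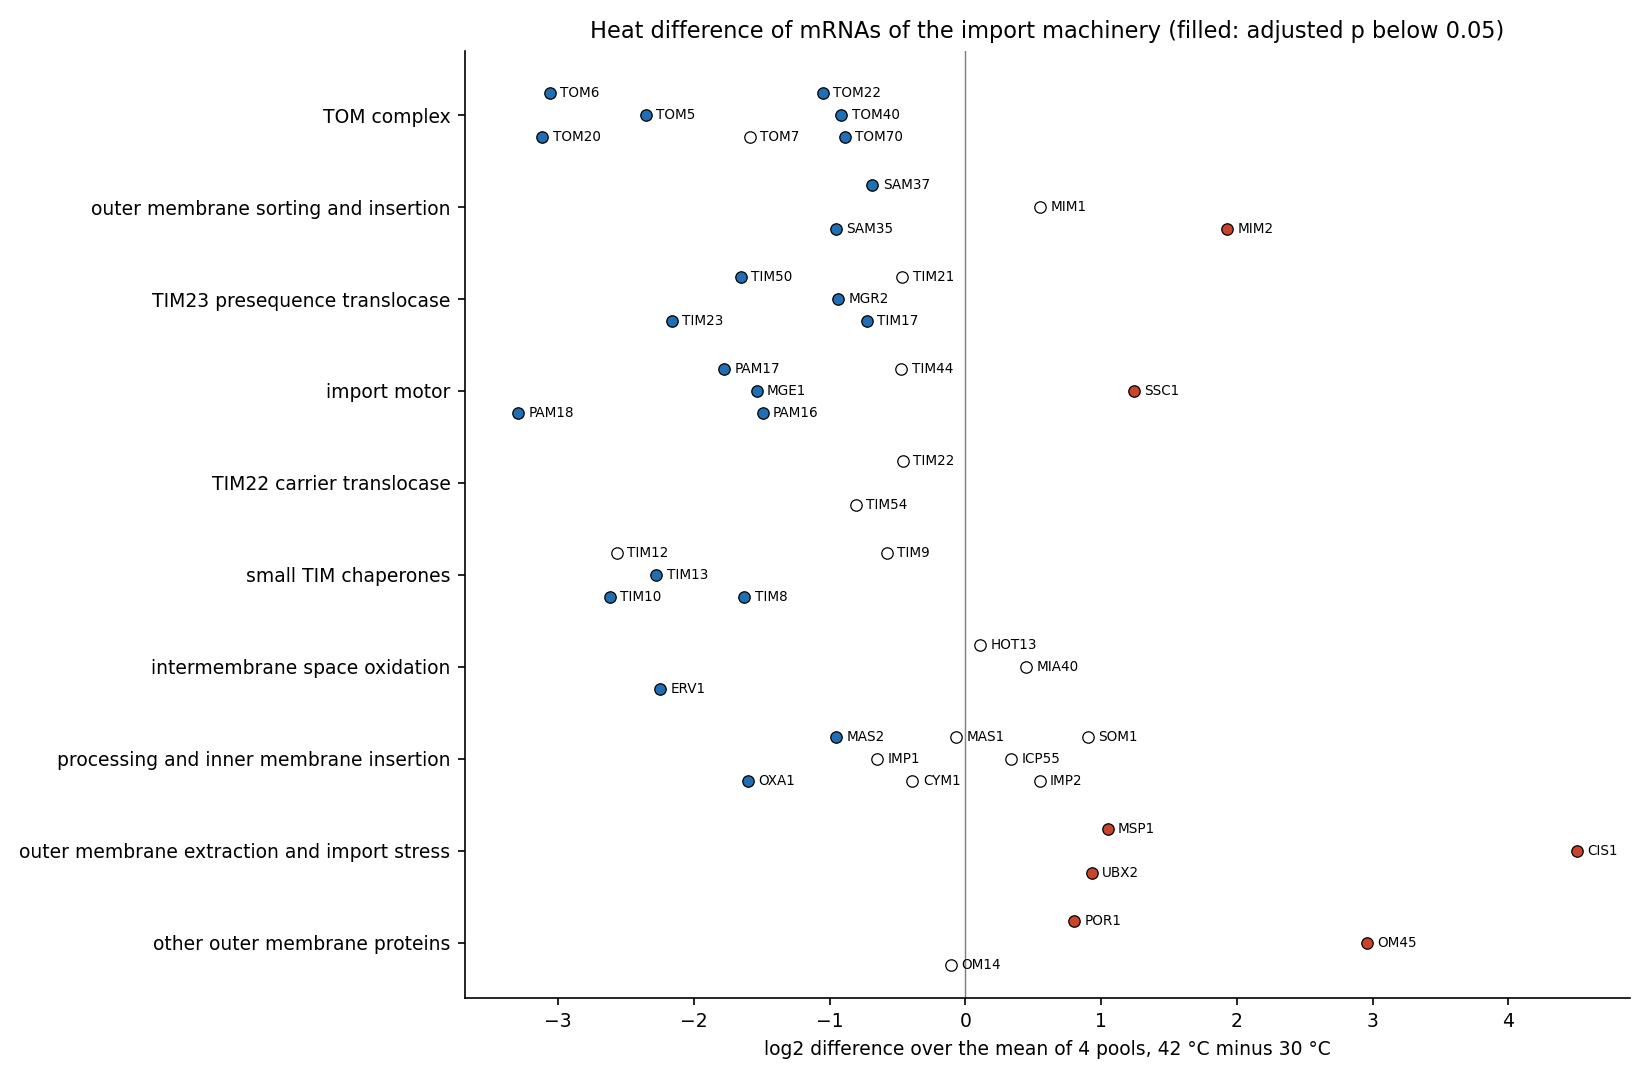
Each point is a gene of the import machinery, placed by its log2 difference over the mean of the 4 pools, 42 °C minus 30 °C (x axis), in rows by list (y axis). Filled blue points are lower and filled red points higher with an adjusted p below 0.05, and open points did not pass. The 7 TOM genes lie between −3.12 and −0.89, and the called genes above 0 are MIM2, SSC1, MSP1, CIS1, UBX2, POR1 and OM45.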

How the data were processed

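Stranded SMART-Seq libraries with added spike-in RNA and no rRNA removal were made from each pool, per the labels' protocols. The deposited values are TPM (transcripts per 1000000), which keep no read depth. The submitters' processing notes name Trim Galore 0.6.5, Salmon 1.9.0 and build R64. Their settings: not given in the sources used here. Of the 6087 entries, gene IDs were matched for 6082 of 6082, with 3 emptied lines left out and 0 value columns without a sample. Precision was judged from replicates, zeros and the steps of the values. A member's value counted as a whole number of steps within 0.05.

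TPM was rescaled over mRNAs. The log2 of the rescaled value plus 1 was fitted in limma 3.58.1 (R 4.3.3) with a mean-variance trend and Benjamini-Hochberg adjustment at 5%, on 3949 mRNAs that reached 10 mRNA TPM in 3 or more libraries. Gradients were the unit for the mean of the 4 pools, and all 24 libraries entered the other fits. Python 3.11.15, numpy 2.4.6, pandas 2.3.3 and matplotlib 3.10.9 made tables and figures. The members, the lists and the rule for naming genes were chosen with earlier results of these data known. The rule names the 7 members, TOM71, HSP104, the 3 most abundant genes of each import list with any whose call went against most of its list, and the 5 tested mRNAs with at least 20 mRNA TPM whose profile is most like that of the members. Length classes were planned on protein length, for which no table was used here, so annotated gene length stands in.

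Replicate numbers were checked for pairing by correlating deviations from the group means. Gradient means of the same number gave r of 0.15, 0.14 and 0.19, and libraries of one pool gave 0.04 to 0.10. Gradients of unlike number were not correlated, so these values cannot show pairing. The main fits carried no block, those between pools of 1 gradient included. Pools of 1 gradient share a lysate by design. Blocked values stand beside the results they change.

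The alternatives covered the pseudocount (0.1 or 5), the filter (none, or 50 mRNA TPM), the scale (TPM as deposited, median, quantile, 25S rRNA, spike-in), the trend, the replicate block, the samples fitted, averaging before log2, and each gradient left out. A scale over mRNAs of 600 nt or more, TPM as deposited with a scaled pseudocount, and pools 2 to 4 only were added after the data were seen. Sequences are not used here.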

Additional observations from a re-analysis of the deposited data

Results flagged for a closer look

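The heat change of the pool 4 against pool 1 difference passed the interaction test for 4 members, meaning that the pool difference was not the same at both temperatures. It was −6.07 for TOM5 (log2, 42 °C minus 30 °C), −2.05 for TOM22, −1.68 for TOM40 and −1.62 for TOM70. The median of all tested mRNAs was −1.56 on the same scale, with 48.2% of them called lower. TOM5 in pool 4 at 42 °C was listed at 0 in 2 of 3 libraries.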

How the results depend on the processing

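The heat difference over the mean of the 4 pools was below 0 for all 7 members under every alternative, and the other results moved mostly with the scale; the cause was not tested. Counts of members follow, without the share of all tested mRNAs that each setting called, so they are not set against a background. On the spike-in scale 0 were lower after heat over the mean of the pools, 2 in pool 1, 0 in pool 3 and 1 in pool 4. In pool 1, 7 were lower with TPM as deposited, 6 with its scaled pseudocount, 5 on the 25S rRNA scale, 3 with median or quantile scaling and 6 with the replicate block on the spike-in scale. All mRNA together was 2.35% of TPM in pool 1 at 30 °C and 0.264% at 42 °C, a drop that TPM as deposited carries for mRNAs in general. In pool 2, 5 were lower with TPM as deposited, 4 with its scaled pseudocount, median, quantile, 25S rRNA or blocked spike-in scaling, and 1 with a pseudocount of 5. In pool 3, 5 were lower with TPM as deposited, and 1 with a filter of 50 mRNA TPM or the scale over mRNAs of 600 nt or more. In pool 4, 3 were lower with that filter or median scaling.

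For pool 4 against pool 1 at 30 °C, 2 were lower with TPM as deposited. Higher there were 1 with the filter of 50 mRNA TPM and 0 with median, quantile, spike-in or 600 nt scaling. At 42 °C 2 were lower with a pseudocount of 5, no filter or the filter of 50, 3 with 600 nt scaling, and 0 with TPM as deposited, spike-in scaling or only the libraries compared. Higher were 3 with TPM as deposited with either pseudocount, 25S rRNA or blocked spike-in scaling. For the heat change of that difference, 2 were lower with the filter of 50 or only the libraries compared, 1 with TPM as deposited or 600 nt scaling, and 0 with median, quantile, 25S rRNA or spike-in scaling (blocked or not) or the scaled pseudocount. Higher were 1 with TPM as deposited and 2 with its scaled pseudocount. For pool 2 against pool 1 at 42 °C, higher were 4 with TPM as deposited (either pseudocount) or blocked spike-in scaling, 2 with 25S rRNA, and 1 with a pseudocount of 5 or spike-in scaling.

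The replicate block left 6 members of the main heat result lower and added TOM7. It made 2 members lower for pool 4 against pool 1 at 42 °C and 1 higher for pool 2 against pool 1 at 42 °C, and changed no other count of members by over 1.5 times. Import genes lower were 28 with TPM as deposited (either pseudocount), 26 on the 25S rRNA or blocked spike-in scale, 0 on the spike-in scale and 10 with 600 nt scaling. Import genes higher were 3, 3, 2 and 0 with TPM as deposited (either pseudocount), 25S rRNA, blocked spike-in and spike-in scaling.

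Some log2 values changed sign. For pool 4 against pool 1 at 30 °C TOM22 read −0.11 with quantile scaling, and TOM70 −0.10 with median and −0.23 with quantile scaling. At 42 °C TPM as deposited, 25S rRNA, blocked spike-in and the scaled pseudocount gave TOM22 0.77, 0.97, 1.52 and 2.29 and TOM70 0.39, 1.11, 1.62 and 2.29. For the heat change of that difference TOM5 read 0.73 with TPM as deposited, and TOM22 0.077 on the 25S rRNA, 0.65 on the spike-in (blocked or not) and 1.22 with the scaled pseudocount. With median, quantile, 25S rRNA, spike-in (blocked or not) and scaled-pseudocount settings TOM40 read 0.070, 0.057, 0.21, 0.70 and 1.03, and TOM70 0.13, 0.31, 0.41, 0.93 and 1.41. Over the mean of the pools MIA40 read −0.20 with TPM as deposited and −0.69 with the scaled pseudocount. MSP1 read −0.16 with spike-in scaling (blocked or not) and −0.093 with the scaled pseudocount. UBX2 read −0.022 on the 25S rRNA scale, −0.21 with spike-in scaling (blocked or not) and −0.10 with the scaled pseudocount. POR1 read −0.17 with TPM as deposited, −0.24 on 25S rRNA, −0.43 with spike-in scaling (blocked or not) and −0.38 with the scaled pseudocount.

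With the median of the members in place of the sum, the share of the short members was 95.2% in pool 2 at 30 °C and 63.3, 96.9 and 0% in pools 1, 3 and 4 at 42 °C. The log2 heat ratio of summed levels was −0.88 for the short and −1.44 for the larger members, and with TPM as deposited, 25S rRNA and spike-in scaling −2.01, −2.12 and −2.17 for the short and −2.32, −2.38 and −2.52 for the larger.

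Leaving out 1 gradient at a time, members lower after heat numbered 3 to 6 over the mean of the pools, 1 to 2 in pool 1, 0 to 1 in pool 2, 2 to 4 in pool 3 and 4 to 5 in pool 4. For pool 4 against pool 1, 0 to 2 were lower and 1 to 3 higher at 30 °C and 1 lower at 42 °C, and the heat change was lower for 2 to 4 and higher for 0 to 1. For pool 2 against pool 1 at 42 °C 0 to 1 were higher. Import genes lower numbered 11 to 18 and higher 6 to 8. Fits of only the libraries compared were not run for the mean of the pools. The limits are 3 gradients per temperature, unknown depth, values of the short members on few steps, spike-in levels and LEU2 that go with the replicate number, and filtering at 42 °C only.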
